A study of Rattus norvegicus with 25 samples.

Results

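Cytochromes P450 are heme enzymes, most of them anchored in the endoplasmic reticulum, that insert oxygen into drugs, steroids, fatty acids and vitamins. Hepatocytes carry the widest set of them. In rat liver the CYP1, CYP2 and CYP3 families handle mainly foreign compounds and steroids, the CYP4 family hydroxylates fatty acids, and many of these genes are controlled by nuclear receptors, by liver-enriched factors and by the pattern of growth hormone release, which differs between the sexes. The genes described here are the P450 genes of the array, chosen from the platform annotation as all symbols that start with Cyp and a digit, without Cyp51, Cyp7a1, Cyp8b1 and Cyp27a1. The choice used no measured value. It gave 39 probes, of which 36 belong to 31 single genes, among 6515 genes named on the array. The other 3 probes are annotated to several P450 genes each and are given apart, with no gene named from them. In bulk liver RNA, fewer cells of a type and less RNA per cell cannot be told apart.

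All samples were liver RNA of male Sprague-Dawley rats, 1 rat per array, and pyrroloquinoline quinone (PQQ), a redox-active quinone taken up with the diet, was the compound varied. The repletion group (4 arrays) were deficient rats that received PQQ by intraperitoneal injection of 1.5 mg per kg body weight every 12 h for 36 h, starting at 6.5 weeks of age. The depletion group (3 arrays) were supplemented rats moved to the deficient diet for 48 h at the same age. The deficient group (6 arrays) ate the basal purified diet without PQQ, as their dams had during the last 10 days of gestation. The supplemented group (6 arrays) and their dams ate the same basal diet with PQQ at 6.67 nmol per g, per the labels. The labels give an age of 6.5 weeks for the deficient and supplemented rats as well. The reference group (6 arrays) ate standard laboratory chow, and its age is not stated. No vehicle-injected group is named in the labels, so injection and PQQ cannot be told apart in the repletion group, and chow differs from the purified diets in more than PQQ.

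CodeLink UniSet Rat I arrays hold 1 biotin-labelled sample each, and levels are given below as log2 normalized intensity, on which the median probe of an array stood at 7.83. A difference of 1 is a factor of 2, and levels of different probes are not comparable with each other. Chow arrays 1 and 2, and supplemented arrays 5 and 6, were nearly identical within each pair (spread of the log2 ratio 0.118 and 0.117, against 0.222 to 0.443 in other pairs that share group and set), so each pair was averaged into 1 sample, named here chow 1 and supplemented 5, which left 23 samples. Shared defective spots divide the arrays into 5 array sets. Set 1 holds supplemented 1 with chow 1 and 3, set 2 holds supplemented 2 and 3, and set 3 holds deficient 1 to 5 with supplemented 4 and 5. Set 4 holds the 3 depletion samples with deficient 6, and set 5 holds the 4 repletion samples with chow 4 to 6. Within 1 set, deficient can therefore be compared with supplemented (set 3), repletion with chow (set 5) and supplemented with chow (set 1), but no set holds both repletion and deficient samples. The 5 hepatocyte markers on the array were bright in every group, with summed normalized intensities of 124062 to 129746 in repletion, 113238 to 115320 in depletion, 111448 to 129884 in deficient, 115683 to 128216 in supplemented and 117561 to 125880 in chow samples. Inha, the marker of steroid-making adrenal or gonad on the array, stood below the filter on low values described next.

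A gene counted as measured when 50% or more of the arrays of some group showed its brightest probe brighter than the array's median probe. 24 of the 31 genes met this filter, and 21 met it in all 5 groups. The 7 genes below it were Cyp11a1, Cyp19a1, Cyp1a1, Cyp26b1, Cyp2a3, Cyp2b21 and Cyp4a8, with group means of 5.83 to 6.80, under the array median in every group. They include the side-chain cleavage enzyme that opens steroid hormone synthesis (Cyp11a1), aromatase (Cyp19a1), a dioxin-inducible xenobiotic P450 (Cyp1a1) and a retinoic acid hydroxylase (Cyp26b1). One fit with limma over all 5 groups tested each probe, with Benjamini-Hochberg adjustment over all probes and a threshold of 0.05. Across the 5 groups the moderated F test called 7 of 24 P450 genes (29.17%), against 38.6% of all probes tested. The 7 genes were Cyp3a9 (adjusted p = 5.14e-06), Cyp2c22 (9.29e-05), Cyp1a2 (0.00148), Cyp4f6 (0.0152), Cyp2g1 (0.0159), Cyp1b1 (0.0251) and Cyp4b1 (0.0432). In this F test the P450 genes as a class were therefore not called more often than all probes tested. The description that follows is of single genes and families.

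**Figure D1:**
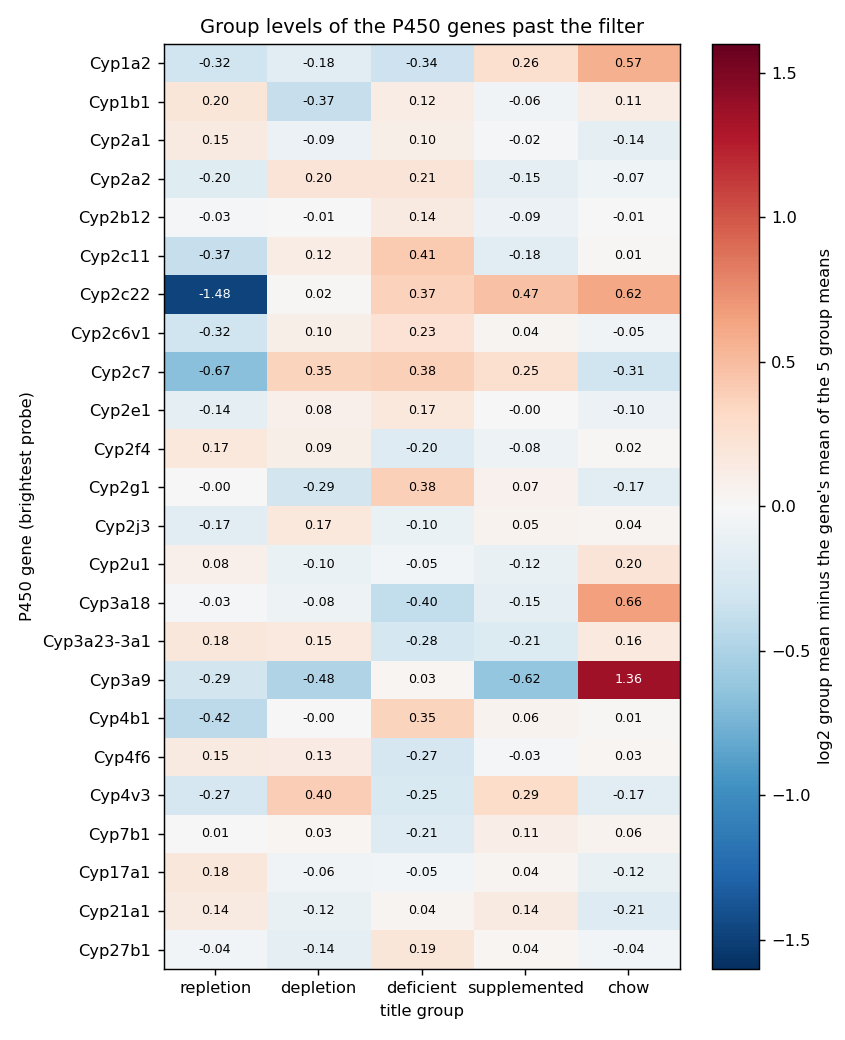
Mean level of each of the 24 P450 genes past the filter in the 5 groups, as the log2 group mean minus the gene's mean of the 5 group means. Red is above and blue below that mean. Cyp2c22 in repletion and Cyp3a9 in chow stand farthest from their own means.

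The CYP2C genes are among the most abundant P450 messages of rat liver, and 4 of them are on the array: Cyp2c22, which metabolises retinoic acid in rat liver, Cyp2c7, another retinoic acid hydroxylase, Cyp2c11, a testosterone hydroxylase of adult male liver, and Cyp2c6v1, a constitutive form. All 4 fell in repletion samples relative to deficient samples, with a median log2 difference of -0.92 against -0.03 over all probes. 36.3% of all probes were called in this comparison, 15.5% higher and 20.8% lower. Of the 24 P450 genes 7 were called, 2 higher and 5 lower, which is 29.17%. The share of P450 genes called was thus below that of all probes. The 100 bases before the RefSeq start of the CYP2C genes with the 3 largest falls (build GRCr8, each written 5′ to 3′ on the gene's strand) are shown because these genes fell in the same comparison, with capitals marking the TATA box letters TATAAA.
Cyp2c22 (chr1:248980768-248980867, minus strand): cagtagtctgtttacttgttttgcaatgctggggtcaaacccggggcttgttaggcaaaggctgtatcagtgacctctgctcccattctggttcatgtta
Cyp2c7 (chr1:247966294-247966393, plus strand): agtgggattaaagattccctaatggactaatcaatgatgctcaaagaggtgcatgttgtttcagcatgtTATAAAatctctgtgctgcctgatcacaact
Cyp2c11 (chr1:246175116-246175215, plus strand): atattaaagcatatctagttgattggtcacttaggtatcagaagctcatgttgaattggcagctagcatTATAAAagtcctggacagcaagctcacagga
In Cyp2c7 and Cyp2c11 the letters begin 31 bases before the start, and in Cyp2c22 they are not in these 100 bases.

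Cyp2c22 had 10.84, 11.64, 11.01 and 10.98 in the 4 repletion samples, and 12.61, 13.00 and 12.26 in the 3 depletion samples. It ranged from 12.36 to 13.54 (median 12.88) in the 6 deficient samples, and had 12.42, 12.25, 13.52, 13.61 and 13.53 in the supplemented samples and 13.34, 13.47, 12.83, 13.56 and 12.91 in the chow samples. Every repletion sample was lower than every sample of the other 4 groups, and those 4 groups overlapped one another. The means were 11.12 ± 0.35 in repletion (SD, n = 4), 12.62 ± 0.37 in depletion (n = 3), 12.97 ± 0.41 in deficient (n = 6), 13.07 ± 0.67 in supplemented (n = 5) and 13.22 ± 0.33 in chow (n = 5). Cyp2c22 fell by 1.85 in repletion relative to deficient (SE 0.27, 3.6-fold lower, limma adjusted p = 5.6e-05), and fell by 2.10 relative to chow (SE 0.29, 4.29-fold lower, adjusted p = 0.000669). Within array set 5, where 4 repletion samples stand beside 3 chow samples, the difference was -1.98 (SE 0.23, limma adjusted p = 0.0114). The difference between repletion and deficient became -0.28 with the array set as a fixed block (SE 0.60, adjusted p = 0.96) and -1.29 with the set as a random block (adjusted p = 0.162). That fixed-block value joins repletion to deficient only through the chow and supplemented samples of other sets, so array set and group can hardly be told apart in it.

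**Figure D2:**
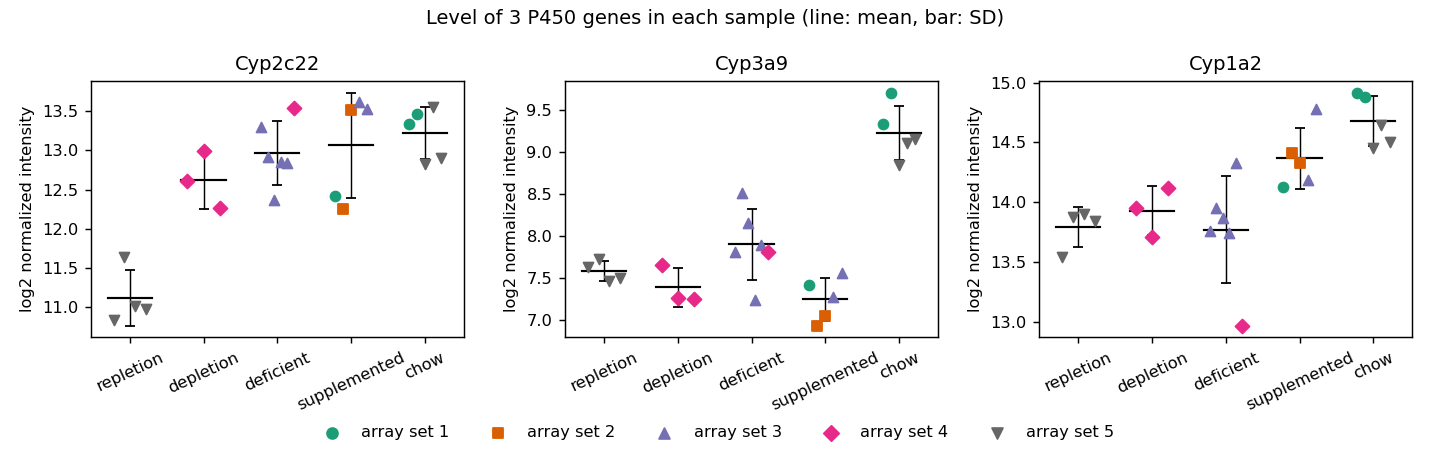
Log2 normalized intensity of Cyp2c22, Cyp3a9 and Cyp1a2 in each of the 23 samples, by group, with symbols for the array set, a line at the group mean and a bar of 1 SD. The 4 repletion samples are the lowest for Cyp2c22, the 5 chow samples the highest for Cyp3a9, and for Cyp1a2 the chow samples lie above all repletion, depletion and deficient samples.

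Cyp2c7 averaged 12.75 ± 0.44 in repletion (SD, n = 4) and 13.80 ± 0.76 in deficient samples (n = 6), and fell by 1.06 (SE 0.34, limma adjusted p = 0.0192). Its groups overlapped, with repletion at 12.32 to 13.24 and deficient at 12.78 to 14.98, and the call was lost without repletion 2 (adjusted p = 0.0607) or without repletion 4 (0.0667). Cyp2c11 fell by 0.78 (SE 0.26, adjusted p = 0.0228), at 13.38 to 13.79 in repletion against 13.69 to 14.67 in deficient samples, and its call was lost without repletion 1 (0.0541) or repletion 4 (0.0663). Cyp2c6v1 fell by 0.56 (SE 0.17, adjusted p = 0.0158), with no overlap between 14.17 to 14.53 in repletion and 14.70 to 15.17 in deficient samples, and was lost without repletion 1 (0.0612). None of these 3 genes passed in repletion relative to chow, with log2 differences of -0.36 for Cyp2c7, -0.38 for Cyp2c11 and -0.27 for Cyp2c6v1. Under the fixed block of array set, the differences from deficient were -0.69 for Cyp2c7 (SE 0.76), -0.61 for Cyp2c11 (SE 0.59) and -0.31 for Cyp2c6v1 (SE 0.43), and none passed. None of the 3 passed in the authors' value table either, with differences of -0.63 for Cyp2c7, -0.33 for Cyp2c11 and -0.20 for Cyp2c6v1, and Cyp2c11 did not pass with median scaling (-0.67, adjusted p = 0.0653).

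Of the other genes called in repletion relative to deficient, Cyp4b1 was lower and Cyp4f6 and Cyp2f4 were higher. Cyp4b1, a P450 of fatty acids and lung toxicants, had 7.92, 8.30, 8.19 and 7.79 in repletion samples and 8.63, 8.37 and 8.41 in depletion samples. It ranged from 8.44 to 9.72 (median 8.73) in deficient samples, and had 8.41, 8.37, 8.55, 8.55 and 8.78 in supplemented and 8.83, 8.82, 8.22, 8.12 and 8.43 in chow samples. The repletion samples lay below all deficient samples but overlapped with chow, and the highest deficient value, deficient 6, stood apart from the others of its group. Cyp4b1 fell by 0.78 (SE 0.20, limma adjusted p = 0.00426), and with the array set as a fixed block the value turned to 0.22 (SE 0.30, adjusted p = 0.935).

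Cyp4f6, which hydroxylates fatty acids and leukotrienes at their end, had 12.33, 12.31, 12.20 and 12.39 in repletion samples and 12.11, 12.23 and 12.52 in depletion samples. It ranged from 11.72 to 12.04 (median 11.90) in deficient samples, and had 12.41, 11.99, 12.17, 11.96 and 12.11 in supplemented and 12.15, 11.97, 12.36, 12.35 and 12.11 in chow samples. The deficient samples were the lowest group, below all repletion and depletion samples and overlapping with supplemented and chow. Cyp4f6 rose by 0.42 in repletion relative to deficient (SE 0.11, limma adjusted p = 0.00401), and fell by 0.30 in deficient relative to chow (SE 0.10, adjusted p = 0.0273). Both signs turned with the array set as a fixed block, to -0.16 (adjusted p = 0.941) and 0.19 (adjusted p = 0.819). The fall relative to chow was also lost without deficient 1, deficient 2, chow 4 or chow 5 (highest adjusted p = 0.0861, without chow 4).

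Cyp2f4, a lung-type P450 that oxidises naphthalene in rats, was 0.37 higher in repletion than in deficient samples (SE 0.14, limma adjusted p = 0.0471), at 11.38 to 11.96 in repletion and 10.83 to 11.61 in deficient. The call was lost without deficient 1, 2, 4 or 5 or repletion 2, 3 or 4, with the highest adjusted p (0.202) without repletion 3. No P450 gene was called in this comparison with the array set as a fixed or as a random block.

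**Figure D3:**
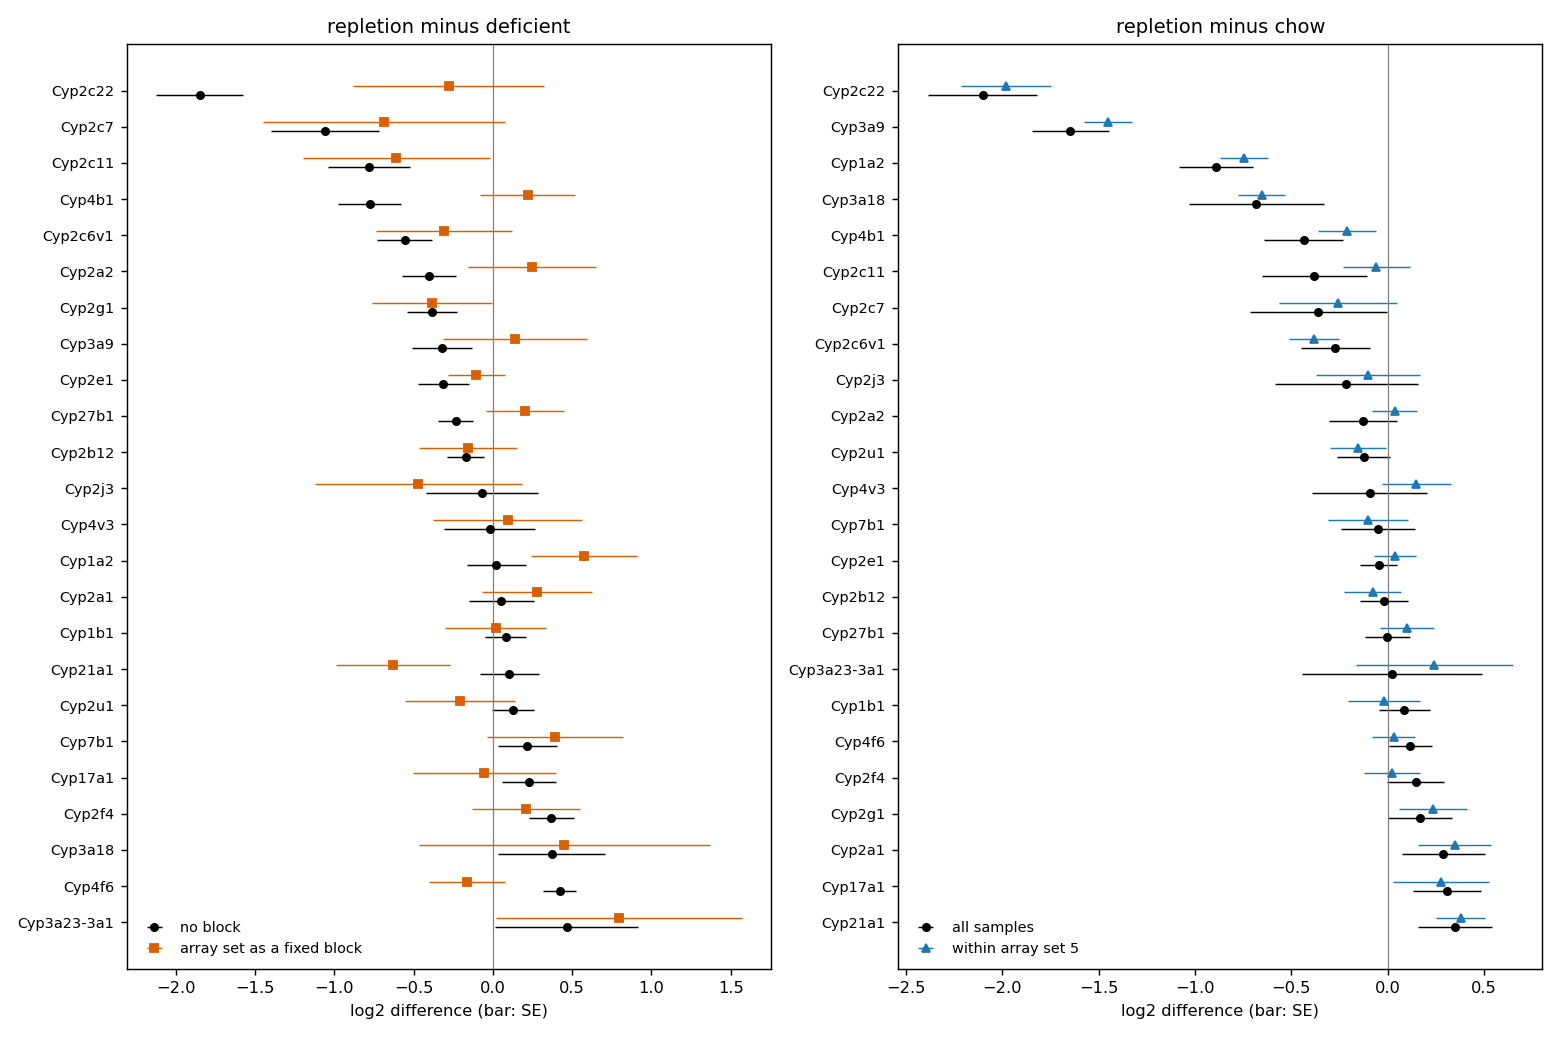
Log2 difference of each of the 24 P450 genes in repletion relative to deficient (left) and relative to chow (right), with a bar of 1 SE. Black points are the fit of all samples, orange squares the same with the array set as a fixed block, and blue triangles the 4 repletion and 3 chow samples of array set 5. The left pairs of points separate for Cyp2c22 (-1.85 and -0.28), while the right pairs for Cyp2c22, Cyp3a9 and Cyp1a2 lie close together.

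The CYP3A genes metabolise steroids and drugs and are targets of the pregnane X receptor. Cyp3a9, a rat form reported as higher in females, was the P450 gene with the smallest adjusted p across the 5 groups. The 100 bases before its RefSeq start are shown with capitals on AGTTCA, the half-site letters searched for nuclear receptors on both strands, which begin 73 bases before the start.
Cyp3a9 (chr12:21960161-21960260, minus strand): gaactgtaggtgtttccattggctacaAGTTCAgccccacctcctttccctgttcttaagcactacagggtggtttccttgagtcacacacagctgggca
Cyp3a9 had 7.63, 7.73, 7.47 and 7.51 in repletion samples and 7.66, 7.27 and 7.26 in depletion samples. It ranged from 7.24 to 8.52 (median 7.86) in deficient samples, and had 7.43, 6.94, 7.05, 7.28 and 7.56 in supplemented samples and 9.34, 9.71, 8.85, 9.11 and 9.16 in chow samples. The 5 chow samples were higher than all 18 samples on purified diets, and the probe stood above the array median in 0 repletion, 0 depletion, 3 of 6 deficient, 0 supplemented and 6 of 6 chow arrays, so that the chow and deficient groups alone carried it past the filter. The means were 7.59 ± 0.12 in repletion (SD, n = 4), 7.39 ± 0.23 in depletion (n = 3), 7.91 ± 0.42 in deficient (n = 6), 7.25 ± 0.26 in supplemented (n = 5) and 9.23 ± 0.32 in chow (n = 5).

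Relative to chow, Cyp3a9 fell by 1.65 in repletion (SE 0.20, 3.13-fold lower, limma adjusted p = 0.000206), fell by 1.98 in supplemented (SE 0.19, 3.95-fold lower, adjusted p = 2.85e-06) and fell by 1.32 in deficient samples (SE 0.18, 2.5-fold lower, adjusted p = 4.97e-05). These 3 comparisons share the chow samples. Within array set 5 the repletion difference was -1.45 (SE 0.12, adjusted p = 0.0022), and within array set 1, with 1 supplemented and 2 chow samples, the supplemented difference was -2.10 (SE 0.22, adjusted p = 0.0166), where the lone supplemented sample is assumed to vary like the chow samples. The deficient difference was -1.59 with the array set as a fixed block (SE 0.40, adjusted p = 0.0436). The chow samples of set 5 differed from those of set 1 by -0.49 for Cyp3a9 (SE 0.18), which did not pass (adjusted p = 0.229).

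Cyp3a9 was also the single P450 gene of 24 called in deficient relative to supplemented samples, where 3.27% of all probes were called (1.72% higher), and 7 P450 genes had an unadjusted p under 0.05. It rose by 0.66 (SE 0.18, limma adjusted p = 0.0474). The Cyp3a9 probe passed the filter through the deficient and chow groups and not through the supplemented group, which limits this call. The groups overlapped, and the call was lost without supplemented 1, 2, 3 or 4 or deficient 1, 2, 3 or 5, with the highest adjusted p (0.131) without supplemented 2. Within array set 3, with 5 deficient and 2 supplemented samples, the difference was 0.51 (SE 0.28, adjusted p = 0.523), in a comparison that called 0.184% of all probes.

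Cyp3a18, a male-predominant rat CYP3A, averaged 12.98 ± 0.76 in deficient (SD, n = 6) and 14.03 ± 0.11 in chow samples (n = 5). It fell by 1.05 in deficient relative to chow (SE 0.32, limma adjusted p = 0.0169), with deficient at 11.46 to 13.50 and chow at 13.86 to 14.14 and no overlap. The supplemented samples, at 12.33 to 13.84, also lay below all chow samples, but the difference of -0.81 did not pass (adjusted p = 0.117). The deficient difference had an SE of 0.82 with the array set as a fixed block (-1.11, adjusted p = 0.693), and the call was also lost with the chow samples of set 1 alone (-1.09, adjusted p = 0.238).

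Cyp1a2, a hepatocyte P450 that oxidises caffeine and aromatic amines and is induced through the aryl hydrocarbon receptor, was lower in 2 groups than in chow. Its window is shown for the TATAAA letters, which begin 39 bases before the start.
Cyp1a2 (chr8:66978150-66978249, minus strand): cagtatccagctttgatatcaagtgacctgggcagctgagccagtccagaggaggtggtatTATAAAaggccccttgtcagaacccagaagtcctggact
Cyp1a2 had 13.54, 13.88, 13.90 and 13.84 in repletion samples and 13.95, 13.71 and 14.12 in depletion samples. It ranged from 12.97 to 14.33 (median 13.81) in deficient samples, and had 14.13, 14.41, 14.33, 14.18 and 14.78 in supplemented samples and 14.92, 14.88, 14.45, 14.65 and 14.51 in chow samples. All repletion, depletion and deficient samples were below all chow samples, and the supplemented samples overlapped with chow. The means were 13.79 ± 0.17 in repletion (SD, n = 4), 13.93 ± 0.21 in depletion (n = 3), 13.77 ± 0.45 in deficient (n = 6), 14.37 ± 0.26 in supplemented (n = 5) and 14.68 ± 0.21 in chow (n = 5).

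Cyp1a2 fell by 0.91 in deficient relative to chow (SE 0.17, 1.88-fold lower, limma adjusted p = 0.000759) and by 0.89 in repletion relative to chow (SE 0.19, 1.85-fold lower, adjusted p = 0.0226). The deficient difference was -1.32 with the array set as a fixed block (SE 0.30, adjusted p = 0.0195), and the repletion difference was -0.75 within array set 5 (SE 0.13, adjusted p = 0.0457). The repletion call was lost without chow 1, chow 3, repletion 1 or repletion 2, with the highest adjusted p (0.0881) without repletion 1. It was also lost with the authors' value table in place of the scanner intensities (-0.66, adjusted p = 0.0771) and with the chow samples of set 5 alone (adjusted p = 0.16). In deficient relative to supplemented samples the difference was -0.60 (SE 0.17), which did not pass (adjusted p = 0.0657). Cyp1b1, an aryl hydrocarbon receptor target found mostly outside the liver, had 8.56, 8.63, 9.08 and 9.17 in repletion, 8.26, 8.18 and 8.42 in depletion, 8.61 to 8.96 (median 8.76) in deficient, 8.55, 8.63, 8.38, 8.74 and 8.71 in supplemented, and 8.62, 8.62, 9.02, 8.62 and 9.005 in chow samples. The depletion samples were at the low end and overlapped with supplemented 3, and none of the 6 comparisons passed for this gene.

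Counted over the 24 genes, 3 were called in repletion relative to chow (12.5%), all lower (Cyp2c22, Cyp3a9 and Cyp1a2). Of all probes 1.34% were called there (0.569% higher and 0.771% lower). Within array set 5 the same 3 genes passed, where 0.606% of all probes did. In supplemented relative to chow 1 gene was called (Cyp3a9, 4.17%), against 9.41% of all probes (4.46% higher and 4.95% lower). Cyp3a9 had passed the filter through the chow and deficient groups alone, and its calls relative to chow or to supplemented samples are counted with that limit. The difference within array set 1, where 2.33% of all probes were called, rests on 1 supplemented sample. In deficient relative to chow 5 were called, 1 higher and 4 lower (20.83%), against 27.4% of all probes (15.4% higher and 12.0% lower). In depletion relative to supplemented limma called 0 of 24 genes, where 0.183% of all probes were called (0.0733% higher and 0.110% lower) and 2 genes had an unadjusted p under 0.05. The log2 differences there ran from -0.44 (Cyp2c22) to 0.37 (the brighter Cyp3a23-3a1 probe), with 3 depletion samples. Over the 6 comparisons 11 of the 24 genes were called at least once.

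The gene called higher in deficient relative to chow was Cyp2g1, known as a P450 of the olfactory mucosa. It had 8.53, 8.67, 8.93 and 9.15 in repletion and 8.61, 8.39 and 8.59 in depletion samples. It ranged from 8.73 to 9.50 (median 9.33) in deficient samples and had 8.97, 8.94, 8.77, 8.57 and 9.22 in supplemented and 8.61, 8.90, 8.65, 8.33 and 8.77 in chow samples. The deficient group was the highest and overlapped with repletion, supplemented and chow. Cyp2g1 rose by 0.55 in deficient relative to chow (SE 0.15, limma adjusted p = 0.00887), and the value was 0.62 with the array set as a fixed block (SE 0.34, adjusted p = 0.529) and 0.45 with the chow samples of set 1 alone (adjusted p = 0.285).

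For 5 genes the array carries a pair of probes, and for 3 of these the probes did not give the same call. Cyp17a1, the hydroxylase and lyase of androgen synthesis, is the clearest case. Its brighter probe had 11.46, 10.86, 10.94 and 11.08 in repletion, 10.67, 10.73 and 11.14 in depletion, 10.63 to 11.14 (median 10.83) in deficient, 11.17, 10.78, 10.92, 10.95 and 10.91 in supplemented, and 10.78, 10.68, 11.31, 10.90 and 10.22 in chow samples. All groups overlapped, and the F test gave an adjusted p of 0.579. The dimmer probe had 10.23, 11.08, 9.81 and 10.75 in repletion and 10.96, 10.63 and 10.74 in depletion samples. It ranged from 10.77 to 12.18 (median 11.44) in deficient samples, and had 11.15, 10.42, 11.17, 10.86 and 10.74 in supplemented and 8.64, 9.29, 9.93, 9.12 and 9.10 in chow samples. By this probe the chow samples were below all samples of the depletion, deficient and supplemented groups and overlapped with repletion (F test adjusted p = 5.92e-05).

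By its dimmer probe Cyp17a1 was higher than chow by 2.26 in deficient (SE 0.26, 4.78-fold, limma adjusted p = 1.9e-05), by 1.65 in supplemented (SE 0.27, adjusted p = 0.00125) and by 1.25 in repletion samples (SE 0.29, adjusted p = 0.0304). The same probe fell by 1.01 in repletion relative to deficient (SE 0.28, adjusted p = 0.00754). Within array set 1 the supplemented difference was 2.19 (SE 0.30, adjusted p = 0.032), with 1 supplemented sample that is assumed to vary like the 2 chow samples, and within array set 5 the repletion difference was 1.08 (SE 0.32, adjusted p = 0.189). Under the fixed block of array set, the deficient difference was 2.75 (adjusted p = 0.0233) and the fall in repletion relative to deficient was -1.66 (SE 0.72, adjusted p = 0.496). The repletion call relative to chow was lost in 7 of 9 fits that left out 1 sample, all but those without chow 4 or repletion 3, with a highest adjusted p of 0.141. Differences from chow by the brighter probe were 0.08 in deficient, 0.17 in supplemented and 0.31 in repletion, and none passed. The files do not say which part of the transcript each probe reads, and which of them follows Cyp17a1 messages was not tested.

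**Figure D4:**
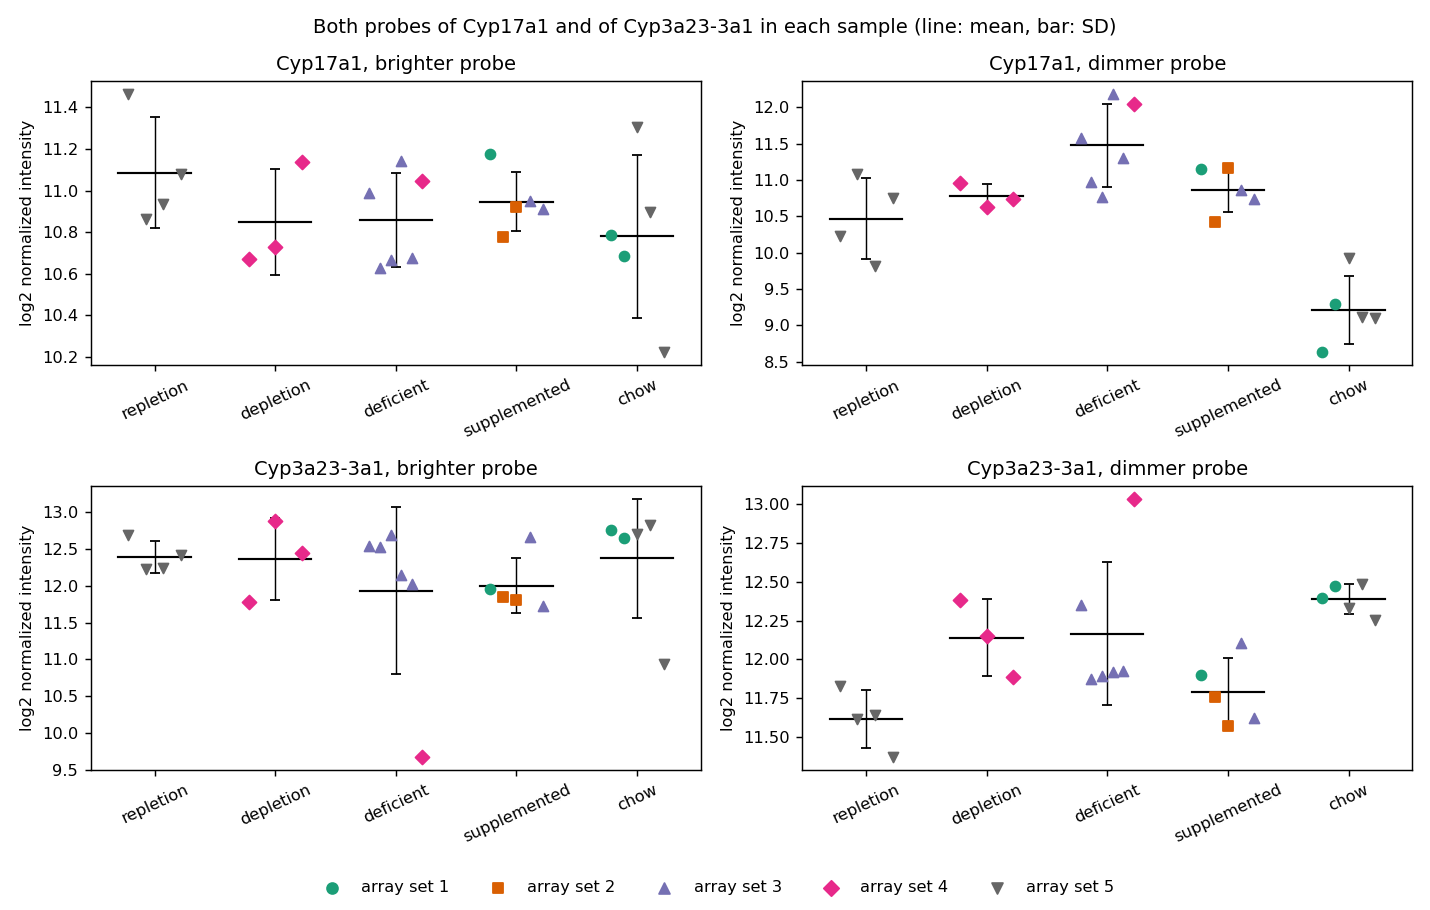
Log2 normalized intensity of the brighter and the dimmer probe of Cyp17a1 (top) and Cyp3a23-3a1 (bottom) in each of the 23 samples, with symbols for the array set, a line at the group mean and a bar of 1 SD, each panel on its own scale. The dimmer Cyp17a1 probe is lowest in chow (mean 9.22) while the brighter one shows overlapping groups.

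Cyp3a23-3a1, the dexamethasone-inducible CYP3A of rat, had a brighter probe with no call in any comparison. Its values in that probe were wide in deficient (9.67 to 12.70) and chow (10.94 to 12.83). Its dimmer probe averaged 11.61 ± 0.19 in repletion (SD, n = 4), 12.14 ± 0.25 in depletion (n = 3), 12.17 ± 0.46 in deficient (n = 6), 11.79 ± 0.22 in supplemented (n = 5) and 12.39 ± 0.10 in chow (n = 5). By that probe it fell by 0.77 in repletion relative to chow (SE 0.19, limma adjusted p = 0.0395), by 0.60 in supplemented relative to chow (SE 0.18, adjusted p = 0.0389) and by 0.55 in repletion relative to deficient (SE 0.18, adjusted p = 0.0211). Leaving out 1 sample ended the first call in 7 of 9 fits (all but those without chow 4 or chow 6), the second in 8 of 10 (all but those without chow 3 or supplemented 4) and the third in 1 of 10 (without repletion 4), with highest adjusted p of 0.121, 0.0887 and 0.0749. Within array set 5 the repletion difference was -0.74 (SE 0.13, adjusted p = 0.0513). The difference of repletion from chow passed under the fixed block of array set (-0.74, adjusted p = 0.018) and the random block (-0.76, adjusted p = 0.0197). It did not pass with median scaling (adjusted p = 0.0631) or in the authors' value table (adjusted p = 0.09). Under the fixed block, the difference of repletion from deficient was -0.34 (adjusted p = 0.907) and that of supplemented from chow -0.54 (adjusted p = 0.34). Under the random block neither of these 2 passed (adjusted p = 0.247 and 0.273).

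Cyp2e1, the ethanol-oxidising P450, had a brighter probe that was defective on the arrays of set 3, so that 1 deficient and 3 supplemented samples could be used, and it passed in no comparison. Its dimmer probe was measured in all samples. It had 14.91, 14.98, 14.61 and 14.20 in repletion samples, against 15.20 to 15.47 in deficient samples, with no overlap. By that probe Cyp2e1 fell by 0.64 in repletion relative to deficient (SE 0.13, limma adjusted p = 0.000635), and was 0.35 higher in deficient than in chow samples (adjusted p = 0.0348). With the array set as a fixed block these differences were -0.07 (adjusted p = 0.976) and -0.10 (adjusted p = 0.941). In the authors' value table they were -0.32 (adjusted p = 0.0545) and 0.19 (adjusted p = 0.268). With median scaling they were -0.60 (adjusted p = 0.00427) and 0.17 (adjusted p = 0.387). The second call was also lost without deficient 1, 2 or 5 or chow 4, 5 or 6 (highest adjusted p = 0.121, without chow 4).

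Of the 3 probes annotated to several P450 genes, 2 passed the filter. The one shared by Cyp4a3 and Cyp4a2, fatty acid hydroxylases and known targets of the receptor PPAR alpha, had 10.89, 10.10, 10.85 and 10.32 in repletion samples, against 7.93 to 9.78 in deficient samples, with no overlap. It rose by 1.66 in repletion relative to deficient (SE 0.52, 3.16-fold higher, limma adjusted p = 0.0157). It fell by 1.64 in deficient relative to chow (SE 0.48, adjusted p = 0.0153), where chow samples stood at 9.37 to 11.12. With the array set as a fixed block the values were 4.57 (SE 1.13, adjusted p = 0.0505) and -4.53 (SE 1.01, adjusted p = 0.0181), and under the random block 2.67 (adjusted p = 0.13) and -2.76 (adjusted p = 0.0621). The probe shared by Cyp3a2 and Cyp3a23-3a1 fell by 1.10 in deficient relative to chow (SE 0.40, adjusted p = 0.0464), a call that ended without deficient 1, 2 or 3 or chow 1, 4, 5 or 6 (highest adjusted p = 0.132, without chow 6). That call was also lost with the array set as a fixed block (-2.15, SE 0.79, adjusted p = 0.251) and as a random block (-1.25, adjusted p = 0.266).

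The 13 genes past the filter with no call by their brightest probe in any comparison were Cyp17a1, Cyp1b1, Cyp21a1, Cyp27b1, Cyp2a1, Cyp2a2, Cyp2b12, Cyp2e1, Cyp2j3, Cyp2u1, Cyp3a23-3a1, Cyp4v3 and Cyp7b1. They include steroid hydroxylases (Cyp2a1, Cyp2a2 and Cyp21a1), the oxysterol hydroxylase Cyp7b1, the vitamin D hydroxylase Cyp27b1 and the arachidonic acid epoxygenase Cyp2j3. Both Cyp2a2 probes gave like values in repletion relative to deficient, -0.40 and -0.36, and neither passed (adjusted p = 0.0692 and 0.072). The dimmer Cyp2b12 probe was below the filter, with a mean of 6.06 against 8.71 for the brighter one. Cyp2b12 thus counts as measured by its brighter probe alone.

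Of genes listed by their sex bias in rat liver, 3 male-predominant ones were measured (Cyp2c11, Cyp2a2 and Cyp3a18) and 3 female-predominant ones (Cyp2c7, Cyp3a9 and Cyp2a1). In repletion relative to deficient 1 of 3 male-predominant genes fell (Cyp2c11) and 1 of 3 female-predominant genes fell (Cyp2c7), where 20.8% of all probes fell, and neither call held with the array set as a block. In deficient relative to chow 1 of 3 in each list fell, Cyp3a18 and Cyp3a9, where 12.0% of all probes fell, and of these Cyp3a9 alone passed with the array set as a fixed block. In deficient relative to supplemented 1 of 3 female-predominant genes rose, where 1.72% of all probes rose. In repletion and in supplemented relative to chow 1 of 3 fell, where 0.771% and 4.95% of all probes fell. Each was Cyp3a9, and no male-predominant gene was called in these comparisons. In depletion relative to supplemented neither list had a call. Cyp3a2 and Cyp4a2, also listed as male-predominant, have shared probes alone, given above, and are not counted.

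Promoters could be matched to RefSeq for 24 P450 genes, and the 250 bases before the start were searched on both strands. TATAAA was found in 9 of them (37.5%), against 12.93% of 33469 promoters, and the half-site AGTTCA in 5 (20.83%), against 12.22%. GCGTG, the core that the aryl hydrocarbon receptor binds, was in 4 (16.67%), against 25.89%, and CACGTG, an E-box, in 1 (4.17%), against 5.59%. The GCGTG matches were in Cyp1b1, Cyp26b1, Cyp2u1 and Cyp4f6, and the AGTTCA matches in Cyp2g1, Cyp2j3, Cyp3a18, Cyp3a23-3a1 and Cyp3a9. A match is a string of letters and not a binding site.

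P450 enzymes need electrons, heme and transcription factors, and these partners were described from lists of their own. Of 9 electron donors and membrane partners, 5 were on the array and past the filter. In repletion relative to deficient 1 of the 5 rose and 0 fell, where 15.5% of all probes rose and 20.8% fell. In deficient relative to supplemented 0 rose and 1 fell, where 1.72% of all probes rose and 1.55% fell. Pgrmc2, a heme-binding membrane partner, rose by 0.90 in repletion relative to deficient (SE 0.21, limma adjusted p = 0.00224), with means of 12.39 in repletion and 11.49 in deficient samples. The Pgrmc2 difference was 0.12 with the array set as a fixed block (adjusted p = 0.969) and 0.73 with it as a random block (adjusted p = 0.212). Ephx1, the microsomal epoxide hydrolase that works on P450 products, fell by 0.76 in deficient relative to supplemented (SE 0.20, adjusted p = 0.0386), and this call ended without supplemented 1, 3 or 4 or deficient 2 or 5 (highest adjusted p = 0.102). The Ephx1 difference was -1.05 with the array set as a fixed block (adjusted p = 0.0777), the same within array set 3 (adjusted p = 0.14) and -0.72 in the authors' value table (adjusted p = 0.0795). It passed with the array set as a random block (-0.93, adjusted p = 0.0299) and with median scaling (-0.77, adjusted p = 0.0256). Of 12 genes of heme synthesis and breakdown, 8 were measured. In repletion relative to deficient 1 of the 8 rose and 1 fell, where 15.5% of all probes rose and 20.8% fell. Hmox1, the inducible heme oxygenase, rose by 0.71 in repletion relative to deficient (SE 0.17, adjusted p = 0.00306), and Hmox2, the constitutive one, fell by 0.37 (SE 0.12, adjusted p = 0.0195), a call lost without repletion 1 or repletion 3 (highest adjusted p = 0.0749). Neither passed with the array set as a fixed block, at 0.30 for Hmox1 (adjusted p = 0.93) and -0.10 for Hmox2 (adjusted p = 0.966), nor with it as a random block (adjusted p = 0.388 and 0.34). The rate-limiting enzyme of heme synthesis, Alas1, passed in none of the 6 comparisons.

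Of 33 receptors and factors that control P450 genes, 24 were on the array and 17 past the filter. In repletion relative to deficient 4 of the 16 tested fell and 1 rose, where 20.8% of all probes fell and 15.5% rose. The median difference was -0.29, against -0.03 over all probes. Dbp, a clock-controlled factor that drives P450 genes in liver, fell by 2.37 (SE 0.33, limma adjusted p = 3.31e-05), and Nr1d2, a nuclear receptor of the clock, fell by 0.83 (SE 0.14, adjusted p = 0.000147). Foxa3 and Foxa2, liver-enriched forkhead factors, fell by 0.60 (adjusted p = 0.00197) and by 1.14 (adjusted p = 0.0206). The Foxa2 call was lost without repletion 1, 2 or 3 (highest adjusted p = 0.0606). With the array set as a fixed block none of these 4 passed, and the Dbp difference was -1.46 (SE 0.85, adjusted p = 0.759).

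In deficient relative to supplemented samples 2 of the 16 factors tested rose and 0 fell, where 1.72% of all probes rose and 1.55% fell. Dbp rose by 2.30 (SE 0.31, limma adjusted p = 0.00031) and Nr1d2 by 0.76 (SE 0.13, adjusted p = 0.0032). Within array set 3 the differences were 1.97 for Dbp (SE 0.20, adjusted p = 0.00613) and 0.51 for Nr1d2 (SE 0.11, adjusted p = 0.113). In deficient relative to chow 3 of 17 factors rose and 1 fell, where 15.4% of all probes rose and 12.0% fell. Relative to chow, Dbp was 1.14 higher in deficient (adjusted p = 0.00905) and 1.16 lower in supplemented samples (adjusted p = 0.0279). Neither Dbp call passed with the array set as a fixed block (adjusted p = 0.896 and 0.291). The pregnane X receptor gene Nr1i2 was measured and passed in none of the 6 comparisons. The aryl hydrocarbon receptor gene Ahr, its partner Arnt, and Ppara were on the array but below the filter.

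Markers of other liver cells were also called in the same comparisons, in the fit without a block of array set. Their values with such a block or with samples left out are not given. No array set holds both repletion and deficient samples, so set and group cannot be told apart in that comparison. Of 7 Kupffer cell and macrophage markers on the array, 6 passed the filter, and of these 3 rose and 1 fell in repletion relative to deficient, while 1 rose and 4 fell in deficient relative to chow. In deficient relative to supplemented 2 of them fell, where 1.55% of all probes fell. In repletion relative to chow 1 fell, where 0.771% of all probes fell. Of all probes 36.3% were called in repletion relative to deficient (15.5% higher and 20.8% lower). In deficient relative to chow 27.4% were called (15.4% higher and 12.0% lower). In deficient relative to supplemented 1.72% of all probes were higher and 1.55% lower, and in supplemented relative to chow 4.46% and 4.95%. The summed intensity of the Kupffer cell and macrophage markers was 9162 to 10837 in repletion, 8910 to 13018 in depletion, 7893 to 11152 in deficient, 10683 to 11882 in supplemented and 10994 to 14400 in chow samples. Of 6 sinusoidal endothelium markers on the array, 4 passed, and 1 rose and 2 fell in repletion relative to deficient, with sums of 1820 to 2084 in repletion and 2235 to 2704 in deficient samples. Of these, Flt1 fell by 0.71 in depletion relative to supplemented, where 0.110% of all probes fell. In supplemented relative to chow 1 of the 4 fell, and in deficient relative to chow 1 rose and 1 fell. Of 3 stellate cell markers past the filter, 2 rose in repletion relative to deficient (Pdgfrb by 0.49 and Col1a1 by 0.75) and 2 fell in deficient relative to chow (Pdgfrb fell by 0.52 and Col1a1 fell by 1.15). In deficient relative to supplemented 1 of the 3 stellate cell markers fell, and in supplemented relative to chow 1 fell. The stellate cell list summed to 2245 to 2579 in repletion, 1823 to 2052 in deficient and 2242 to 3660 in chow samples. The pancreas marker Cela1 fell by 0.81 in deficient and fell by 0.78 in supplemented samples relative to chow. Of the 5 hepatocyte markers none passed in repletion relative to deficient or to chow. Apoa2 rose by 0.46 in deficient relative to supplemented, and in supplemented relative to chow Apoa1 rose by 0.33 and Apoa2 fell by 0.55. Apoa1 rose by 0.28 in deficient relative to chow. The part of these markers in the P450 differences was not tested.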

How the data were processed

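Each of 25 CodeLink arrays measured the liver RNA of 1 rat, per the labels' protocols. Deposited scanner tables hold, per the file headers, spot and background intensity and a defect flag (unit other). The deposited value table holds the authors' processed signal on a linear scale. Its normalization is not given in the sources used here, its direction is that of the scanner intensity, and it served as an alternative.

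Background was corrected with normexp (offset 50), controls and defective spots (54 to 169 per array) were left out, and values were quantile normalized and taken to log2. Groups were compared with limma 3.58.1 (R 4.3.3) over 5473 probes, 2-sided, in 6 comparisons. Nearly identical arrays (spread of the log2 ratio under 0.15) were averaged. Array sets are arrays whose defective spots overlap by over 0.5. The number of arrays limits the precision. The labels give individual rats, so the spread is between rats.

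The genes, lists and tests were chosen with earlier results of these data known. Values by sample (lowest, median and highest for the 6 deficient samples) are given for Cyp2c22, Cyp3a9, Cyp1a2, Cyp17a1 and the other genes past the F test; further genes are named where a comparison called them. The brightest probe stands for a gene, and probes were named through the platform annotation with symbols updated in a RefSeq table. Alternatives covered the array set, scaling, background, filter, defective spots, probe choice, array weights and leaving out samples. Chow samples of 1 array set only were added after seeing the data. One gene of the receptor and factor list is not reported here.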

Additional observations from a re-analysis of the deposited data

Results flagged for a closer look

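Single samples stood far from the others of their group in 10 of 118 sets of a probe and a group (8.47%), where chance gives about 5% (Dixon's test). All probes past the filter were used, in groups of 4 to 6 samples. The depletion group, with 3 samples, was not tested. Deficient 6 stood apart for 3 genes. Its Cyp2a1 level was 12.22 (10.89 to 11.15 in the rest of that group), its Cyp4b1 level was 9.72, against 8.44 to 8.88, and the brighter Cyp3a23-3a1 probe was at 9.67, against 12.03 to 12.70. The same Cyp3a23-3a1 probe also stood apart in supplemented 4, at 12.66 against 11.73 to 11.96, and in chow 6, at 10.94 against 12.65 to 12.83. Chow 6 was low for Cyp2j3 as well, at 9.14 against 9.97 to 10.20. Chow 4 was low for Cyp2c7, at 12.31 against 13.23 to 13.40, and chow 5 was high for Cyp7b1, at 8.43 against 7.80 to 7.98. Cyp3a18 in deficient 3 stood at 11.46, where the rest of that group held 13.15 to 13.50. Cyp1a2 in repletion 1 stood at 13.54, against 13.84 to 13.90 in the other repletion samples.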

How the results depend on the processing

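The number of P450 genes called changed with the treatment of array sets. With the array set as a fixed block it was 0 in deficient relative to supplemented (1 without the block), 0 in repletion relative to deficient (7), 6 in depletion relative to supplemented (0) and 2 in deficient relative to chow (5). Those 6 rest on deficient 6, the only sample that ties set 4 to the rest, and with the set as a random block the counts were 0, 0, 0 and 2, and 4 genes passed the F test instead of 7. Within array set 3 the count in deficient relative to supplemented was 0. That single call was also absent, at 0, with the replicate block, median scaling, no filter, a filter above background, defective spots kept and only the groups compared, while it became 2 with the authors' value table and with every array as its own sample, and 4 with array weights. In supplemented relative to chow the count of 1 became 4 with the replicate block and 2 with the authors' value table, no filter, a filter above background and the mean of a gene's probes. The replicate numbers did not pair samples: deviations of 36 same-numbered pairs had a median correlation of -0.038 (range -0.268 to 0.692, 8 above 0.1), and 4 of 23 samples correlated best with their own number. In repletion relative to deficient the count was 4 with the authors' value table. Array weights gave 4 in depletion relative to supplemented. Chow samples of set 1 alone gave 2 in deficient relative to chow, and those of set 5 alone gave 8. Leaving out 1 sample gave 0 to 1 calls in deficient relative to supplemented, 5 to 9 in repletion relative to deficient, 0 to 0 in depletion relative to supplemented, 2 to 3 in repletion relative to chow, 1 to 1 in supplemented relative to chow, 4 to 6 in deficient relative to chow and 5 to 9 in the F test. With the array set as a fixed block, Cyp4b1 (0.22) and Cyp4f6 (-0.16) in repletion relative to deficient and Cyp4f6 (0.19) in deficient relative to chow turned sign. Of 261 values of single called genes under the other alternatives, 218 kept direction and call, 40 lost the call and 3 turned. Leaving out 1 sample, 145 of 173 kept the call and 28 lost it. The cause of these changes was not tested, except that some settings use fewer samples or probes. Intensities ran above background for 82.4% to 89.5% of probes per array, and the 7 genes below the filter have no tested value.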
